A study of Mus musculus with 12 samples.

Results

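Coenzyme Q, or ubiquinone, is the lipid that carries electrons from the dehydrogenases of the inner mitochondrial membrane to complex III. Its long isoprenoid tail is built from products of the mevalonate pathway, is joined to an aromatic ring, and the ring is then methylated and hydroxylated by enzymes that assemble on the matrix side of that membrane. Brown and beige adipocytes are rich in mitochondria and feed this carrier with electrons from fatty acids and glycerol 3-phosphate. The 10 genes described here are Pdss1, Pdss2, Coq2, Coq3, Coq4, Coq5, Coq6, Coq7, Coq9 and Coq10a. They were picked by symbol from the 23420 genes of a read count table of inguinal white adipose tissue (iWAT), the subcutaneous fat pad in which beige adipocytes form. All 10 were found, and all 10 were among the 15306 genes that passed the filter on low counts.

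The tissue came from C57BL/6 male mice aged 10 weeks, and 3 libraries were made for each of 4 groups. Mice of all groups carried HIF2a loxP/loxP alleles. WT mice had no Cre, and HIF2α AKO mice had Adipoq-Cre as well, so that Cre and the deletion were always present together. The temperatures were 30 °C for 1 week (thermoneutral, TN) or 4 to 6 °C for 3 days (cold). Adipoq-Cre acts in adipocytes, whereas whole iWAT was sequenced, which also holds vessels, immune cells and stroma. In such bulk tissue, fewer cells of a type and less RNA per cell cannot be told apart. The labels number the libraries of a group without stating that each came from a separate mouse, so the p-values measure the spread between these libraries, which may be technical.

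Between 22368316 and 35204631 reads per library were counted on genes. Epas1, the gene of HIF2α, ranged from 278 to 430 CPM (counts per 1000000 counts of the library, TMM-scaled) in WT and from 289 to 394 CPM in HIF2α AKO at TN, and from 562 to 743 against 743 to 986 CPM in the cold. No fall of this gene was thus seen with the HIF2α AKO label in these counts per whole gene. Such counts of whole tissue do not separate adipocytes from other cells, or the deleted part of the gene from the rest. The study reported lower mRNA of this gene, there named Hif2a, in fat of its knockout mice. Genotypes are given as labelled. The fat marker Adipoq was present in every library, at 899 to 2470 CPM. Ucp1, the uncoupling protein of thermogenic adipocytes, lay between 0.204 and 3.85 CPM at TN and between 2170 and 5900 CPM in the cold. A set of 12 skeletal muscle markers summed to 1705 CPM in cold HIF2α AKO replicate 1 and to 1970 CPM in TN HIF2α AKO replicate 2, against 45.58 to 134.3 CPM in the other libraries. Epithelial markers summed to 200 CPM in TN WT replicate 3 and to at most 10.28 CPM elsewhere.

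The sequences around the start sites of the members were examined because the members' levels moved together within groups. The promoter windows of RefSeq (GRCm38.p6), from 250 bases before to 50 bases after the start site, were searched for short words. They were found for 9 of the 10 members, all but Coq5, with 11 windows in all, since Coq3 and Coq10a have more than 1 start site there. Stretches before the start site of 4 members are printed, chosen as stretches with no annotated protein-coding exon. Of these members, Pdss1, Coq7 and Coq10a rose in the cold, and Coq4 did not pass the test. Coq10a also had the largest fitted difference between genotypes in the cold, which did not pass the adjusted test. Capitals mark AAGGTCA, a site of estrogen-related receptors (ERR), and ACGTG or GCGTG, the core of a hypoxia response element (HRE), on either strand.
Pdss1, chr2:22895272-22895521, plus strand: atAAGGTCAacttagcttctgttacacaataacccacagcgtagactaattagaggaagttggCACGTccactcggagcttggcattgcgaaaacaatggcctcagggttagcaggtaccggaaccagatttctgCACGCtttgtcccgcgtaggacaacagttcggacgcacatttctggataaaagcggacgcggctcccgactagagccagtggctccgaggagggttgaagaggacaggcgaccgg
Coq4, chr2:29787243-29787492, plus strand: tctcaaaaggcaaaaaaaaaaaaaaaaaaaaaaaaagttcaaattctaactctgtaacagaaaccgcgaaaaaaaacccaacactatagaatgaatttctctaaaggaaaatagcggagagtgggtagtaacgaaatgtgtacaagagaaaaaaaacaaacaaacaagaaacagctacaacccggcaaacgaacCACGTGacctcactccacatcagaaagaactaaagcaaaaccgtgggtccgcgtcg
Coq7, chr7:118533357-118533606, minus strand: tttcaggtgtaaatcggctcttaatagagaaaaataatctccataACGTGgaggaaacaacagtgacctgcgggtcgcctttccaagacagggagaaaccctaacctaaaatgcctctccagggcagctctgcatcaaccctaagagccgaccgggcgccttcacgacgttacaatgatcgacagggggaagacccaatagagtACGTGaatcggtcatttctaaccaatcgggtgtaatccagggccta
Coq10a, chr10:128370038-128370287, minus strand: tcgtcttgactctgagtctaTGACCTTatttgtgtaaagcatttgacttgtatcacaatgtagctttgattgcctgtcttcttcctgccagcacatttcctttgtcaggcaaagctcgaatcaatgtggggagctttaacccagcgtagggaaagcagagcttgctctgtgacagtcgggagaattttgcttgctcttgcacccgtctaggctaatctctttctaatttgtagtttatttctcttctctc

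The first RefSeq start of Coq10a, whose stretch is printed, lies upstream of the bounds that GENCODE gives the gene. The window of its second start, which lies within those bounds, is not printed and held 5 matches of the HRE core. The ERR word was in the windows of Pdss1 and Coq10a, in 2 of the 11 windows, and in 4.72% of all 32851 windows of the same length. An HRE core was in 8 of the 11 windows, from 7 of 9 members, and in 43.8% of all windows. The median GC content was 56.7% in the 11 windows and 52.7% in all windows, and these shares were not matched for it. The capitals in Coq4 are a palindrome that matches the HRE core on both strands and overlaps itself. The ETS word CCGGAAG was in 3 of the 11 windows, those of Pdss1, Pdss2 and Coq6, and in 8.86% of all windows. Neither the NRF1 word CGCATGCG, held by 1.87% of all windows, nor the CRE word TGACGTCA, held by 1.79%, was in a member's window. These are matches of letters and not measured sites. Coq2 had none of these words in its window.

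Cold exposure of WT mice was compared with TN first. Of the 10 members, 8 rose, by between 2.09-fold (Pdss2) and 3.32-fold (Coq9), and none fell. The prenyltransferase gene Coq2 and the scaffold gene Coq4 had fold changes of 1.26 and 1.5 and did not pass the test. The median log2 fold change of the 10 members was 1.26, against -0.03 over all genes tested. Over all genes, 15.6% were called higher in this comparison (edgeR's quasi-likelihood test, Benjamini-Hochberg adjusted p under 0.05). In 8 members, all 3 cold libraries lay above all 3 TN libraries, as did 22.7% of all genes.

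**Figure D1:**
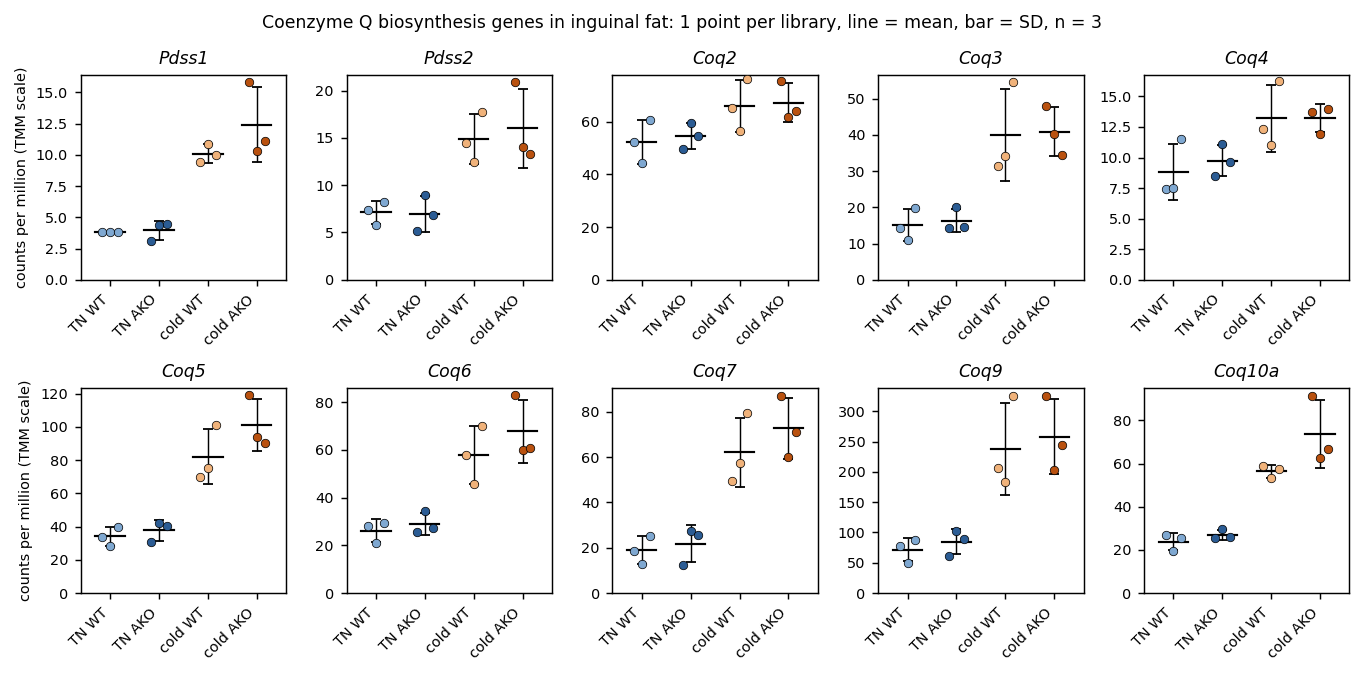
CPM (y axis, from 0) of each member in the 12 libraries, by group (x axis), with 1 point per library, the mean as a line and the SD as a bar. In 8 panels the cold points of each genotype stand above its TN points, whereas Coq2 runs from 44.2 to 60.6 in TN WT and from 56.6 to 76.3 in cold WT.

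Pdss1 (chr2:22895522-22940266) and Pdss2 (chr10:43221486-43464882) encode the 2 subunits of the enzyme that makes the isoprenoid tail. Pdss1 was at 3.79, 3.84 and 3.79 CPM in TN WT and at 9.44, 10.9 and 10.0 CPM in cold WT. Its groups were far apart relative to their spread, with a mean of 3.81 ± 0.0278 against 10.1 ± 0.754 CPM (SD, n = 3). The log2 fold change was 1.41 ± 0.19 (SE), with an adjusted p of 0.00112 from edgeR. Pdss2 ranged from 5.79 to 8.19 CPM in TN WT and from 12.4 to 17.7 CPM in cold WT. The log2 fold change was 1.06 ± 0.24 (adjusted p = 0.0122, edgeR). This was the smallest rise among the 8, and its adjusted p became 0.0532 without cold WT replicate 3 and 0.0582 without TN WT replicate 2.

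Coq2 (chr5:100654723-100675140), which joins the tail to the ring and so commits both to coenzyme Q, did not pass the test. It was at 52.2, 44.2 and 60.6 CPM in TN WT and at 65.2, 56.6 and 76.3 CPM in cold WT. The groups overlapped, since cold replicate 2 lay below TN replicate 3. The log2 fold change was 0.33 (95% interval 0.02 to 0.65), with an adjusted p of 0.109 from edgeR. The upper end of this interval was below the lower ends for 7 of the 8 members that rose, which ran from 0.71 (Coq6) to 1.09 (Coq9), and above that of Pdss2 at 0.53. The difference between Coq2 and the other members was not tested in a model of its own. Without TN WT replicate 3, the library with epithelial transcripts, the adjusted p of Coq2 was 0.0492.

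The genes that modify the ring rose together. Coq6 (chr12:84361657-84373796), a flavin-dependent hydroxylase, ranged from 20.9 to 29.5 CPM in TN WT and from 45.6 to 70.1 CPM in cold WT. The O-methyltransferase gene Coq3 (chr4:21879673-21912162) went from 11.0 to 19.8 CPM up to 31.4 to 54.5 CPM, and Coq5 (chr5:115279666-115296972), a C-methyltransferase, from 28.5 to 39.9 CPM up to 69.9 to 101 CPM. In none of the 3 did the groups overlap, and their log2 fold changes were 1.14 ± 0.20, 1.41 ± 0.26 and 1.27 ± 0.19 (SE), with adjusted p of 0.00337, 0.00457 and 0.00166 from edgeR. Coq7 (chr7:118509659-118533356) encodes the di-iron hydroxylase of the penultimate step. It was at 18.7, 12.9 and 25.1 CPM in TN WT and at 49.5, 57.2 and 79.3 CPM in cold WT. Every cold library was thus at more than the highest TN value, and the log2 fold change was 1.72 ± 0.32 (adjusted p = 0.00464, edgeR).

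Coq4 and Coq9, whose products hold the ring enzymes and their lipid substrates together, moved to different extents. Coq9 (chr8:94838321-94854895), a lipid-binding protein that Coq7 depends on, was at 77.6, 50 and 87.5 CPM in TN WT and at 206, 184 and 325 CPM in cold WT. It had the highest fold change of the members in WT, at 1.73 ± 0.29 on the log2 scale (SE, adjusted p = 0.00288, edgeR). Coq4 (chr2:29787493-29797935) was at 7.44, 7.54 and 11.5 CPM in TN WT and at 12.3, 11.0 and 16.3 CPM in cold WT. Its groups overlapped in 1 library, the same TN WT replicate 3, and the log2 fold change was 0.58 (95% interval 0.14 to 1.02, adjusted p = 0.0593, edgeR). The adjusted p of Coq4 was 0.0132 without TN WT replicate 3, 0.046 without cold WT replicate 2, and 0.0287 in DESeq2. Exons of Trub2 on the opposite strand share 27.1% of the exon bases of Coq4, and the strand setting of the counting is not given in the sources used here, so reads from the 2 genes cannot be told apart there.

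Coq10a (chr10:128363100-128368997), whose product binds finished coenzyme Q and is needed for its use in respiration, was at 26.7, 19.3 and 25.3 CPM in TN WT and at 58.8, 53.1 and 57.6 CPM in cold WT. The 3 cold values lay close together and well above those at TN. The log2 fold change was 1.25 ± 0.16 (SE), and its adjusted p of 0.000837 (edgeR) was the lowest of the members. In the exact two-sided permutation test of 3 against 3 libraries, each member without overlap had p = 0.1, the smallest that this design allows.

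Cold exposure changed the same 8 members in the mice labelled HIF2α AKO. The 8 that rose ran from 2.29-fold (Pdss2) to 3.34-fold (Coq7), beside 15.6% of all genes called higher. The median log2 fold change of the members was 1.37, against -0.05 over all genes. All 10 members had cold values above all TN values, as did 24.9% of all genes. These libraries are separate from the WT libraries, although both comparisons share 1 estimate of the spread.

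Pdss1 was at 3.08, 4.36 and 4.45 CPM in TN HIF2α AKO and at 15.8, 10.3 and 11.1 CPM in cold HIF2α AKO, a log2 fold change of 1.64 ± 0.19 (SE, adjusted p = 0.000367, edgeR). Coq7 was at 12.4, 27.4 and 25.4 CPM at TN and at 86.8, 60.2 and 71.2 CPM in the cold, a log2 fold change of 1.74 ± 0.32 (adjusted p = 0.00354). Coq9 was at 61.6, 102 and 89.6 CPM at TN and at 325, 203 and 245 CPM in the cold, a log2 fold change of 1.61 ± 0.29 (adjusted p = 0.00325). In each of these genes, replicate 1 was the lowest of the TN libraries and, among the cold libraries, the one that holds skeletal muscle transcripts was the highest. The remaining members that rose had log2 fold changes of 1.2 (Pdss2), 1.32 (Coq3), 1.42 (Coq5), 1.23 (Coq6) and 1.45 (Coq10a).

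Coq2 again stood lowest. It was at 49.6, 59.4 and 54.6 CPM in TN HIF2α AKO and at 75.6, 61.9 and 64.0 CPM in cold HIF2α AKO, so that the groups were separated only by the gap between 59.4 and 61.9 CPM. Its log2 fold change was 0.30 (95% interval -0.01 to 0.61), and the adjusted p was 0.13 (edgeR). The upper end of that interval was below the lower end for each of the 8 members that rose, the nearest being Pdss2 at 0.67. Coq4 had a log2 fold change of 0.44 (95% interval 0.00 to 0.88, adjusted p = 0.117). Without the cold and the TN library that hold skeletal muscle transcripts, 8 members were still called, with a median of 1.35, beside 8.02% of all genes.

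**Figure D2:**
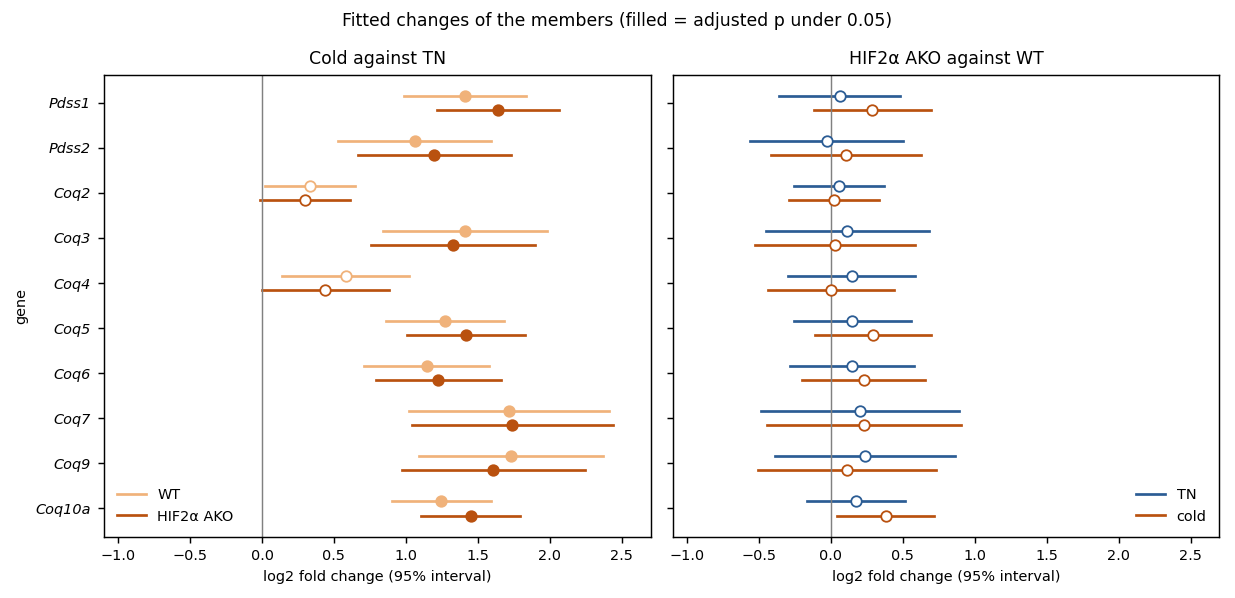
Log2 fold change (x axis) of each member with its 95% interval, for cold against TN within each genotype (left) and for HIF2α AKO against WT at each temperature (right). Filled points have an adjusted p under 0.05. Filled points are 8 per genotype on the left, where Coq2 and Coq4 are open, and there are 0 on the right.

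The members were next compared between libraries labelled HIF2α AKO and WT at the same temperature. In the cold, 0 of 10 members passed the adjusted test, beside 0.00653% of all genes, and the adjusted p was 1 for each (edgeR). All 10 fitted values were above 0, between 0.00 (Coq4) and 0.38 (Coq10a) on the log2 scale, with a median of 0.17. Without cold HIF2α AKO replicate 1, the library with skeletal muscle transcripts and the highest value for 9 of 10 members in its group, the median was 0.02 and 5 of 10 values were above 0. Without cold WT replicate 3, the median was 0.35. At an unadjusted p under 0.05 there was 1 member, Coq10a, beside 2.95% of all genes.

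Coq10a was at 58.8, 53.1 and 57.6 CPM in cold WT and at 91.5, 62.8 and 66.7 CPM in cold HIF2α AKO. It was the only member whose 2 cold groups did not overlap, which was true of 3.8% of all genes in this direction. The log2 fold change was 0.38 (95% interval 0.05 to 0.72), with an unadjusted p of 0.0293 from edgeR and an exact permutation p of 0.1. Without cold HIF2α AKO replicate 1 the log2 fold change was 0.20, with an unadjusted p of 0.174. The unadjusted p was 0.0663 without cold WT replicate 2, 0.0511 without cold WT replicate 3 and 0.0507 in limma voom.

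With the looser thresholds of the study's methods, which ask for p below 0.15 before adjustment and a log2 change beyond 0.2 either way, 3 members were called higher, namely Pdss1, Coq5 and Coq10a, beside 4.74% of all genes. Pdss1 had a log2 fold change of 0.29 (unadjusted p = 0.147, edgeR) and Coq5 of 0.30 (unadjusted p = 0.136). Coq5 ranged from 69.9 to 101 CPM in cold WT and from 90.1 to 119 CPM in cold HIF2α AKO, and these ranges overlapped. Coq5 and Coq10a also stand in a gene list that the study drew from these libraries, which is not independent evidence of their direction. The 95% intervals of the other members reached from -0.52 (Coq3) to 0.90 (Coq7), and differences within these ends are not excluded by the 3 libraries a group.

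At TN, 0 of 10 members passed the adjusted test, beside 0.00653% of all genes, and 0 had an unadjusted p under 0.05, beside 2.91% of all genes (edgeR). The fitted values ran from -0.03 (Pdss2) to 0.24 (Coq9) on the log2 scale, with a median of 0.15. None had groups without overlap in the higher direction, against 3.69% of all genes. The median was 0.01 without TN HIF2α AKO replicate 2, which holds skeletal muscle transcripts, 0.02 without TN WT replicate 2 and 0.26 without TN WT replicate 3. Coq2, at 44.2 to 60.6 CPM in WT and 49.6 to 59.4 CPM in HIF2α AKO, had the narrowest interval of the members, from -0.25 to 0.37.

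The interaction term, which asks whether cold had a different effect in the 2 genotypes, called 0 of 10 members and 0% of all genes. The values of the members lay between -0.14 (Coq4) and 0.23 (Pdss1), and the lowest unadjusted p was 0.365 (Coq10a, edgeR). For Pdss1 the 95% interval of the difference ran from -0.36 to 0.82, and for Coq7 from -0.94 to 0.99.

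Levels were also ordered per kilobase of exon, since longer genes gather more reads. Coq9 was highest in each of the 4 groups, at 23.5 ± 6.35 CPM per kb in TN WT and 78.0 ± 24.9 in cold WT (SD, n = 3). Coq2 was second at TN, at 19.9 ± 3.12 CPM per kb in WT, and its values overlapped with those of Coq9. In cold WT it was the third at 25.2 ± 3.76, after Coq5 at 27.1 ± 5.49, and these neighbours overlapped as well. Next came Coq10a, Coq6 and Coq3, while Coq4, Pdss2 and Pdss1 were lowest, at 2.59, 1.19 and 0.896 CPM per kb in TN WT. Places in this order depended on the length used. Coq7 in TN WT was the seventh at 2.93 CPM per kb of all its annotated exons, 6434 bases, and the third at 20.7 CPM per kb of its principal transcript of 914 bases. By principal transcripts, Coq5 in TN WT and Coq2 in cold WT were each the fifth rather than the third, and Coq9 remained the highest in all 4 groups.

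The summed level of the 10 members per kilobase was 84.9 ± 17.1 in TN WT, 94.3 ± 15.7 in TN HIF2α AKO, 202 ± 45.3 in cold WT and 228 ± 43.3 in cold HIF2α AKO (SD, n = 3). Within that sum, the mean share of Coq2 was 23.7% in TN WT and 12.6% in cold WT, and 22.2 and 11.3% in HIF2α AKO. The share of Coq9 was 27.4 and 38% in WT, and 29.0 and 36.8% in HIF2α AKO. These sums and shares used the length of all annotated exons. By principal transcripts Coq7 was second in cold WT, at 67.9 CPM per kb, and shares on that length were not taken. The ratio of Coq9 to Coq2 per kilobase was 1.28, 0.971 and 1.24 in the TN WT libraries and 2.71, 2.79 and 3.66 in the cold WT libraries. In HIF2α AKO it was 1.07, 1.48 and 1.41 at TN and 3.69, 2.82 and 3.29 in the cold. The 6 cold libraries thus all lay above the 6 TN libraries in this ratio, which does not depend on how the libraries are scaled. This pair was chosen after the values were seen, and no test is given.

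**Figure D3:**
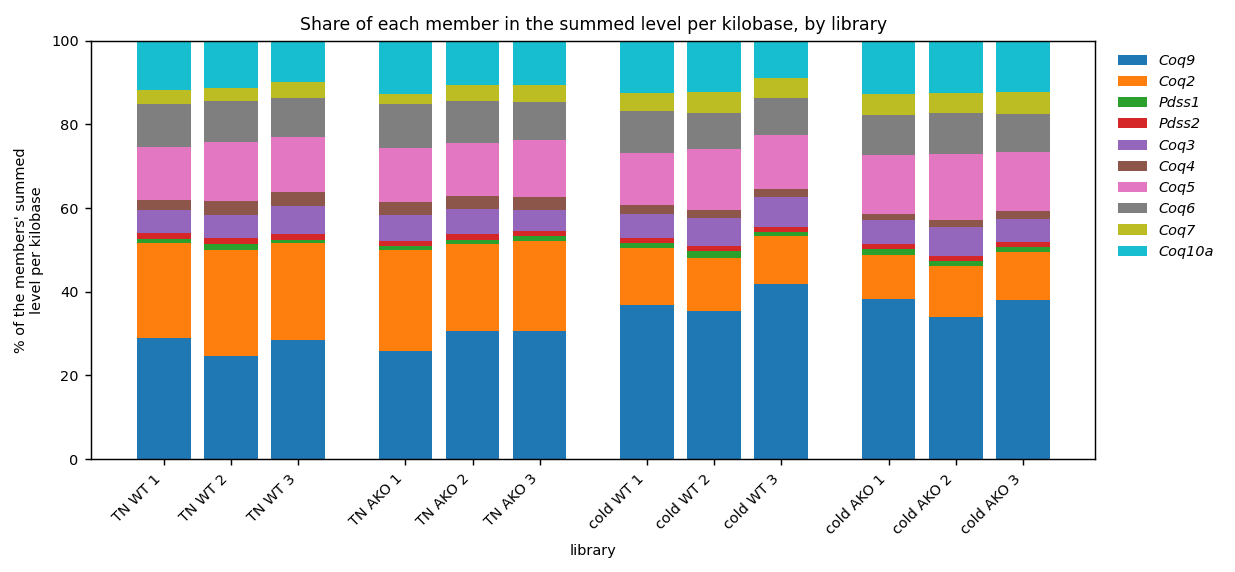
Share of each member (y axis, %) in the summed level per kilobase of all annotated exons of the 10 members, by library (x axis). From TN to cold WT the mean share of Coq2 went from 23.7 to 12.6% and that of Coq9 from 27.4 to 38%.

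Other genes of the pathway were examined by lists. Of 8 further genes of coenzyme Q handling, 6 rose in WT and 5 in HIF2α AKO in the cold, and none fell. Over all genes, 15.6% were called higher in the cold in each genotype. Coq8a, an atypical kinase that supports the ring enzymes, had log2 fold changes of 1.5 and 1.62 (adjusted p = 0.00832 and 0.00492, edgeR), and Coq10b, the paralog of Coq10a, of 1.52 and 1.55. Fdx1, a ferredoxin, had 1.19 and 1.44, the phosphatase gene Pptc7 0.67 and 0.87, and Stard7, which encodes a lipid carrier, 0.67 and 0.88. Coq8b had 0.87 in WT and 0.61 in HIF2α AKO, where its adjusted p was 0.0928. Its cold WT values were 36.1, 35.5 and 71.8 CPM, and without replicate 3 the adjusted p in WT was 0.11, and it was 0.0829 and 0.128 without TN WT replicates 1 and 2. The ferredoxin reductase gene Fdxr had log2 fold changes of -0.05 and -0.12 and passed neither test. Fdx2, at 0.141 to 0.555 CPM, was too low to compare.

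Upstream, the mevalonate pathway makes the units of the tail. Of its 8 genes, 1 rose in WT and 2 in HIF2α AKO, beside 15.6% of all genes called higher in each genotype. The median log2 fold changes of the list were 0.73 and 0.78. In 2 genes in WT and 6 in HIF2α AKO, all cold libraries lay above all TN libraries. This was true of 22.7 and 24.9% of all genes. Hmgcs1, the synthase at the entry of the pathway, had log2 fold changes of 1.73 and 1.72 (adjusted p = 0.0267 and 0.0233, edgeR). Its values were widely spread, from 65.8 to 168 CPM in TN WT and from 288 to 602 CPM in cold WT. Its adjusted p in WT was 0.104 without cold WT replicate 3, and 0.0572 and 0.0938 without TN WT replicates 1 and 2. In HIF2α AKO it was 0.0907 without cold replicate 1, and 0.0673 and 0.0542 without TN replicates 1 and 3. Mvd had log2 fold changes of 0.97 and 0.89 and passed in neither genotype (adjusted p = 0.0681 and 0.0771, edgeR). Ggps1, which makes geranylgeranyl diphosphate, had -0.10 and -0.25 and passed in neither genotype. Fdps, which makes farnesyl diphosphate, had 0.94 (adjusted p = 0.0918) and 1.17 (adjusted p = 0.0419), and that call was lost when any single one of the 6 HIF2α AKO libraries, or TN WT replicate 1, was left out.

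Among 8 enzymes that pass electrons to coenzyme Q outside complex I, 5 rose in WT and 4 in HIF2α AKO, beside 15.6% of all genes in each. Etfdh, which takes electrons from fatty acid oxidation, had log2 fold changes of 2.5 ± 0.27 and 2.63 ± 0.27 (SE), and Gpd2, the glycerol 3-phosphate dehydrogenase, of 1.95 ± 0.36 and 2.40 ± 0.36. Sdha, a subunit of complex II, had 1.4 and 1.45, and Aifm2, which reduces coenzyme Q outside mitochondria, 1.26 and 1.23. The calls of Aifm2 were lost without the same single libraries as those of Hmgcs1. Prodh, the proline dehydrogenase, had 1.54 in WT (adjusted p = 0.0118, edgeR) and 0.40 in HIF2α AKO (adjusted p = 0.388). Without TN WT replicate 2 its adjusted p in WT was 0.0567, and 3 of these enzymes were called. Its interaction term of -1.14 had an unadjusted p of 0.0377 and an adjusted p of 1. Dhodh, Sqor and Chdh did not pass in either genotype. In WT, however, Dhodh and Chdh had adjusted p of 0.0211 and 0.0186 without TN WT replicate 3, where 7 of these enzymes were called, and of 0.0171 and 0.0222 in limma voom.

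Downstream, the list held 9 nuclear genes of complex III, which takes the electrons off coenzyme Q. Each rose in both genotypes, beside 15.6% of all genes in each genotype. Their medians were 1.84 in WT and 1.92 in HIF2α AKO, above the medians of the members at 1.26 and 1.37, although the lists were not tested against each other. The lowest was Uqcrh in WT, at 1.34 ± 0.20, and the highest Uqcrfs1 in HIF2α AKO, at 2.17 ± 0.26 (SE). In the genotype comparisons and the interaction, 0 genes of these 4 lists passed the adjusted test (edgeR).

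**Figure D4:**
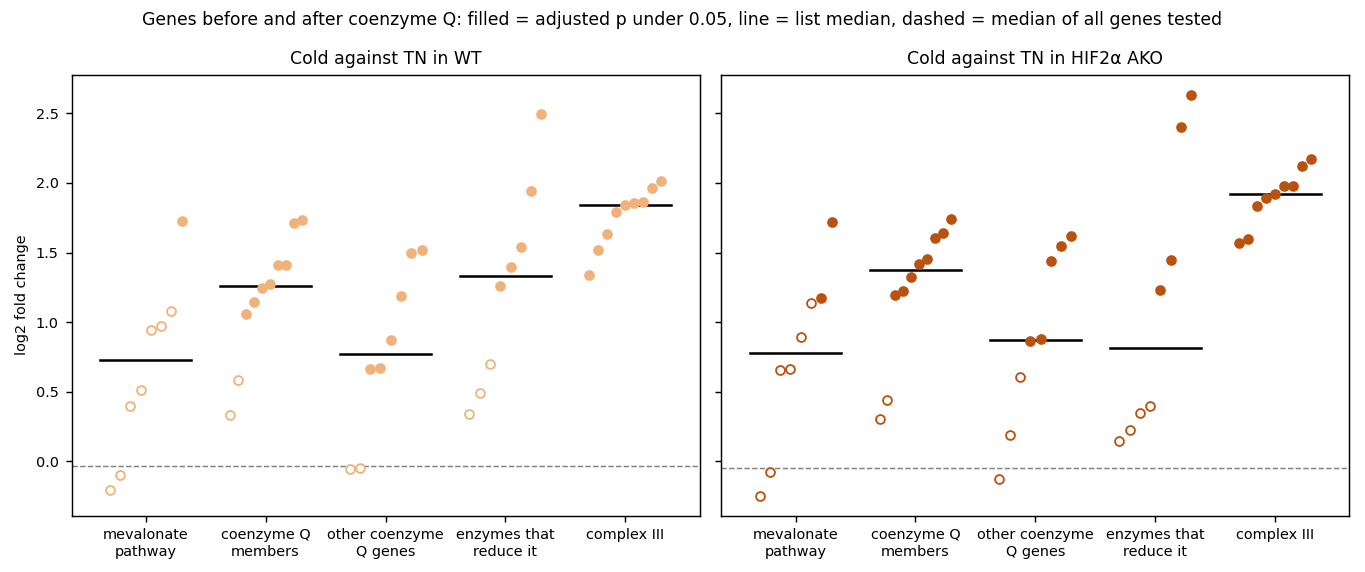
Log2 fold change in the cold (y axis) of each gene by list (x axis), in WT (left) and HIF2α AKO (right), where filled points have an adjusted p under 0.05, solid lines are list medians and the dashed line is the median of all genes tested. Complex III is filled throughout with medians of 1.84 and 1.92, and in the mevalonate list 1 and 2 points are filled.

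Within groups, the members varied together from library to library. Over the deviations of 12 libraries from their group means, the 45 pairs of members had a median Pearson r of 0.80, from 0.23 to 0.96. The points share their library and its scaling, so these are descriptions. Coq9 followed the others most closely, with a median r of 0.91, and Pdss1 least, at 0.55, before Coq10a at 0.64. The genes most like the mean of the members were Atp5c1 and St3gal3 with r = 0.993, Atp5b with 0.992, and Sdha and Apoa1bp with 0.991. Atp5c1 and Atp5b encode subunits of ATP synthase. In all, 915 genes outside the members, the 5 named here included, had r above 0.9. For Ucp1 r was 0.128, but this gene was near the floor at TN, at 0.204 to 3.85 CPM. No r is given for other thermogenic markers. Cox8b was highest of each group where the mean of the members was highest. So was the sum of 8 thermogenic adipocyte markers, Ucp1 included, except in cold WT. There it was 4864 CPM in replicate 2 and 3627 CPM in replicate 3.

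**Figure D5:**
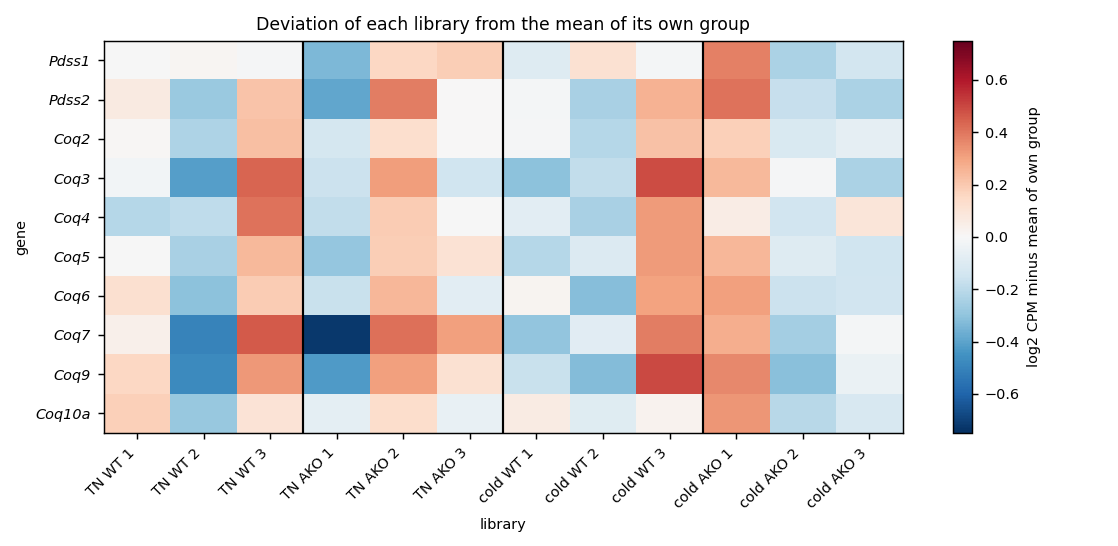
Deviation of log2 CPM from the mean of the library's own group (colour scale) for the 10 members (y axis) in 12 libraries (x axis, groups split by lines). Columns are mostly of 1 colour, with mean deviations of 0.28 in cold WT 3 and cold AKO 1 and of -0.29 in TN WT 2 and TN AKO 1.

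Summed markers of other cells moved with this pattern. In each of the 4 groups, the library with the highest mean of the members also had the highest sum of 6 white adipocyte markers and the lowest sums of 6 lymphocyte and of 6 macrophage markers. These were TN WT replicate 3, TN HIF2α AKO replicate 2, cold WT replicate 3 and cold HIF2α AKO replicate 1. The first of them holds epithelial transcripts, and both HIF2α AKO libraries hold skeletal muscle transcripts. The skeletal muscle sum was also the highest of its group in each of them but TN WT replicate 3, where it was the lowest. In each group the library with the lowest mean of the members had the highest lymphocyte sum, such as TN HIF2α AKO replicate 1 at 1200 CPM, where all 10 members were lowest. The white adipocyte sum was 3998 to 10760 CPM at TN and 13410 to 26370 CPM in the cold, and the lymphocyte sum 738.7 to 1200 CPM against 418.3 to 704.4 CPM, so both sums also differed with temperature. Fabp4, a fatty acid carrier, made up 49 to 69.7% of the white adipocyte sum, and a sum without it was not taken. Not every marker followed its sum. In TN HIF2α AKO replicate 2, the macrophage markers Adgre1, Mrc1 and Itgam were highest of the group, at 82.9, 260 and 74.9 CPM. Cd68, Csf1r and Lyz2 were lowest there. Mrc1 was also highest in cold HIF2α AKO replicate 1, at 147 CPM. In TN WT replicate 3, the lymphocyte markers Cd3e and Cd3g were highest, at 61.5 and 57.4 CPM. The other lymphocyte markers were lowest there. Lep and Pparg were highest in TN HIF2α AKO replicate 3. In cold HIF2α AKO, Fabp4, Plin1, Cidec and Pparg were highest in replicate 1. Adipoq, however, was at 1530 CPM there and at 1850 CPM in replicate 2. Lep was at 330 CPM in replicate 1, below 364 and 405 CPM in replicates 2 and 3. Of the 6 white adipocyte markers, 3 passed the test in the cold in WT (Fabp4, Cidec and Pparg, all higher) and 1 in HIF2α AKO (Fabp4), whereas Adipoq had log2 fold changes of 0.43 (adjusted p = 0.352, edgeR) and -0.01 (adjusted p = 0.985). The macrophage sum was 2069 to 2290 CPM at TN and 1168 to 1404 CPM in the cold in HIF2α AKO, where 1 of 6 markers, Mrc1, passed as lower, and 1285 to 2379 against 1019 to 2097 CPM in WT, where none passed. With log2 CPM of Adipoq as a covariate, a fit added after the values were seen, 8 members were called in WT with a median of 1.16 and 10 in HIF2α AKO with a median of 1.36, beside 15.2 and 21.2% of all genes called higher. Between genotypes in the cold, 0 members passed the adjusted test in that fit, and 3 (Coq5, Coq6 and Coq10a) had an unadjusted p under 0.05, beside 6.15% of all genes. Adipoq did not differ with temperature as the white adipocyte sum did, so this fit cannot decide the part of the other cells in the cold response. That part was not tested.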

How the data were processed

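RNA-seq libraries of mouse iWAT were analysed, 3 for each combination of genotype (WT, HIF2α AKO) and temperature (TN, cold). The authors trimmed reads with Trim Galore 0.4.4, aligned them with STAR 2.6.1d to GRCm38/mm10 and deposited read counts per gene from HTSeq 0.13.5, without normalization. Annotation, strand setting and read length are not given in the sources used here. The series table and the tables per sample were identical in all 12 libraries. The 5 tallies of reads that fell outside genes made up 21.9 to 27% of the reads listed and were left out.

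Counts were fitted with edgeR 4.0.16 in R 4.3.3, with TMM scaling, 1 factor of 4 groups, filterByExpr (minimum count 10, minimum total 15) and the quasi-likelihood test, and p-values were Benjamini-Hochberg adjusted over 15306 genes with a limit of 0.05. The biological coefficient of variation was 0.202. CPM are on the TMM scale, log2 CPM used a prior count of 2, and lengths and positions came from GENCODE vM21. Replicate numbers were not treated as pairs in the main fit. The deviations of 18 same-numbered pairs of libraries had r from -0.43 to 0.39, with 5 above 0.1. Pairs with different numbers were not compared, so this cannot decide whether libraries of 1 number were handled together. The code was tested on simulated counts. Alternatives were other scalings, no filter, DESeq2 1.42.0, limma 3.58.1 (voom), 2 groups only, the replicate block, the study's thresholds and each library left out.

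The members, the pathway lists and the marker lists were chosen with earlier results of these data known. The named genes are all members, genes of the lists, the check gene Epas1, Trub2, which overlaps Coq4, and the 5 genes most like the members. Not every gene of the lists is named. A gene of the mevalonate list is not reported here. Intervals are 95% intervals of the fitted values and cover the spread between libraries.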

Additional observations from a re-analysis of the deposited data

How the results depend on the processing

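The direction of each of the 10 members in both cold comparisons was kept in all 22 alternatives. The number of members called higher in the cold was 7 to 10 in WT with single libraries left out (7 without cold WT replicate 3 or without TN WT replicate 2, which lost Pdss2, and 10 without TN WT replicate 3) and 8 in HIF2α AKO with any library left out. It was 8 to 10 in the other alternatives for both. The number of all genes called higher moved as well. In WT it was 1312 of 15506 without cold WT replicate 3, 1149 of 15506 without TN WT replicate 2 and 2669 of 15467 without TN WT replicate 3. In HIF2α AKO it ran from 1299 of 15486 to 2625 of 15506 with single libraries left out. In the other alternatives it ran from 1468 of 14975 to 4101 of 15306 in WT. In HIF2α AKO it then ran from 1239 of 15442 to 3933 of 15306. With the replicate block, 9 members were called in WT, where Coq4 had an adjusted p of 0.0495, and 8 in HIF2α AKO, and no other call of a member changed. In the lists, Hmgcs1 in WT was then lost and Mvd passed in both genotypes. Under upper quartile scaling the median of all genes moved from -0.03 to -0.17 in WT and from -0.05 to -0.14 in HIF2α AKO, and calls split into 1861 higher and 2509 lower in WT, against 2389 and 870 with TMM, and into 2070 and 2815 in HIF2α AKO, against 2381 and 1757. The members' medians were then 1.12 and 1.28, and the same number of 8 was called in each. The count of all genes called in cold WT was 3259, against 1752 with only the 2 groups compared in the fit and 1381 to 3722 with libraries left out. In HIF2α AKO it was 4138, against 1514 without both libraries with skeletal muscle transcripts and 1613 to 4853 with single libraries left out. The fits with fewer libraries have fewer degrees of freedom.

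Between genotypes in the cold, 3 members passed the study's thresholds and 0 any other setting. Without both libraries with skeletal muscle transcripts, 5 of 10 members were above 0 between genotypes in the cold, with values from -0.126 to 0.197. At TN 6 of 10 were above 0, with values from -0.245 to 0.108. The values whose sign differed from the main fit were, in the cold, -0.13 (Pdss2), -0.069 (Coq2), -0.10 (Coq3), -0.025 (Coq4) and -0.089 (Coq9). At TN these were -0.013 (Pdss1), -0.007 (Coq2) and -0.062 (Coq3). With Adipoq as covariate Coq2 at TN was -0.008. Ranges are given next for members whose sign changed when single libraries were left out. In the cold they were -0.13 to 0.25 (Pdss2), -0.069 to 0.14 (Coq2), -0.12 to 0.32 (Coq3), -0.083 to 0.18 (Coq4) and -0.089 to 0.40 (Coq9). At TN they were -0.028 to 0.21 (Pdss1), -0.245 to 0.145 (Pdss2), -0.049 to 0.18 (Coq2), -0.068 to 0.36 (Coq3) and -0.006 to 0.485 (Coq7). The median interaction ranged from -0.11 to 0.24. In the pathway lists, the ranges that changed sign for cold against TN in WT were -0.15 to 0.028 (Fdxr), -0.69 to 0.29 (Fdx2) and -0.021 to 0.71 (Idi1). Those in HIF2α AKO were -0.66 to 0.47 (Fdx2) and -0.01 to 0.36 (Sqor). Fdx2 in cold WT was 0.078 with voom and 0.19 with Adipoq as covariate. The causes were not tested. The mevalonate list had 0 to 3 genes called in WT and 0 to 4 in HIF2α AKO with libraries left out, and 4 in each with DESeq2.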
